A study of Mus musculus with 6 samples.

Results

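The 8 genes described here belong to sterol synthesis, its feedback control, lipoprotein uptake and oxysterol formation: Srebf2, Insig1, Hmgcs1, Idi1, Fdft1, Sqle, Lrp8 and Ch25h. They were picked by symbol from a deposited table of 28368 genes, and all 8 were among the 18049 genes with enough counts to test. The samples were mouse tumours profiled by sequencing of polyadenylated RNA, as 3 treated libraries from mice given MS-DF-MS therapy for 12 h and 3 control libraries from untreated mice. By its title, the series concerns implantable depots that let out a STING agonist first and a drug inducing apoptosis second. STING is the adaptor that relays the sensing of DNA in the cytosol to interferon. The labels give no drug names, tumour type, mouse strain, age or genotype, and no group carried an empty depot, so drug effects and effects of an implant cannot be told apart. Nothing in the labels ties each library to its own mouse. The p-values therefore rest on the spread among these libraries, part of which may be technical.

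Cells make cholesterol through the mevalonate pathway, whose enzyme genes are switched on together by SREBP2, the product of Srebf2. When membranes hold enough sterol, INSIG proteins keep SREBP2 in the endoplasmic reticulum, and the genes are read less. Lipoprotein receptors bring cholesterol in from outside, and 25-hydroxycholesterol, made by the enzyme that Ch25h encodes, holds SREBP2 back through INSIG and is known in mouse macrophages as a product of the interferon response.

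The libraries held 57017043 to 66634551 counts. Treated 3 stood apart on the first principal component (28.4% of the variance), at 72.9 against -20.8 and 13.3 for the other treated libraries and -37.9 to 10.3 for the controls. Treated 1 stood apart in markers of skin. The 10 keratinocyte and sebaceous markers summed to 89.7 CPM (counts scaled to the library total, with TMM factors) in treated 1, against 2.13 in treated 2, 0.361 in treated 3 and 0.342 to 2.49 in controls. Krt14, a keratin of basal keratinocytes, stood at 41.9 CPM in treated 1 and at 0 in treated 2, treated 3 and controls 2 and 3. Krt14 (41.9 CPM) and Krt5 (28.2 CPM) gave most of the sum in treated 1. Of those 10 markers, Krt5, Krt15, Dsg3, Lor, Krtdap and Mc5r were at 0 in every control. Treated 1 was the highest library for 8 of the 10. The exceptions were Mc5r, at 0 in treated 1, and Scd3, at 0.627 CPM there, against 2.13 CPM in treated 2 and 2.44 CPM in control 3. Adipocyte, neutrophil, macrophage and endothelial marker sums were also highest in treated 1, the adipocyte sum mostly through Fabp4 (78.1 CPM). Treated 1 was highest for 6 of the 10 macrophage, 8 of the 10 neutrophil and 5 of the 10 endothelial markers. The fibroblast sum was not highest there, at 632.4 CPM against 644.7 CPM in control 1. Nor was the T cell sum, at 17.85 CPM against 18.54 CPM in control 3. Melanocyte markers, the defining genes of the pigment lineage, were abundant everywhere and summed to 22740 to 24740 CPM in treated and 22140 to 24440 CPM in control libraries. Of 30 interferon-stimulated genes, 29 rose in treated tumours, where 1.36% of all tested genes rose.

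The promoters of the factor, its brake and the enzyme genes with a RefSeq window are shown first, because SREBP2 acts on such windows together with the factor NF-Y. RefSeq (build GRCm38.p6) gave promoters for 6 of the 8 genes, each a window of 300 bases from 250 before to 50 after a start. Capitals mark the NF-Y box CCAAT (read as ATTGG on the other strand) and the core CACNCCAC of the sterol regulatory element, both searched on both strands. The windows lie at chr13:119690101-119690400 for Hmgcs1, chr13:8885356-8885655 for Idi1, chr5:28071162-28071461 for Insig1 and chr15:82147019-82147318 for Srebf2, all on the plus strand.
Hmgcs1: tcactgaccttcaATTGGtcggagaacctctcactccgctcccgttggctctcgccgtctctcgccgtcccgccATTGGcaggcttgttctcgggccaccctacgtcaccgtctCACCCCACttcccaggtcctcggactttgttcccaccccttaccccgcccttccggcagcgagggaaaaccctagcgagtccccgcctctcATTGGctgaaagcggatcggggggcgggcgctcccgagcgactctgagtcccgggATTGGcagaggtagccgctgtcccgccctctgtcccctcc
Idi1: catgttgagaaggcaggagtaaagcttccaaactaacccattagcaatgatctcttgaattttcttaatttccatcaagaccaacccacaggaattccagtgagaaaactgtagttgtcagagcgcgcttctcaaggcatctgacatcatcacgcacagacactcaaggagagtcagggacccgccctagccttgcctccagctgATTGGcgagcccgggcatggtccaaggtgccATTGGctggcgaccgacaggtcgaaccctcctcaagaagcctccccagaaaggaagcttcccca
Insig1: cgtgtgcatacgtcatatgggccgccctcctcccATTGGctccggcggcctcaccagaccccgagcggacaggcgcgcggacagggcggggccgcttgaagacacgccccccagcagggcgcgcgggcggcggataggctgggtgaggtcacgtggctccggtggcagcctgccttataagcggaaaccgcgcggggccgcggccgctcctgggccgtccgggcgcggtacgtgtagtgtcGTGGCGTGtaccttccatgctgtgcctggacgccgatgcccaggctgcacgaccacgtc
Srebf2: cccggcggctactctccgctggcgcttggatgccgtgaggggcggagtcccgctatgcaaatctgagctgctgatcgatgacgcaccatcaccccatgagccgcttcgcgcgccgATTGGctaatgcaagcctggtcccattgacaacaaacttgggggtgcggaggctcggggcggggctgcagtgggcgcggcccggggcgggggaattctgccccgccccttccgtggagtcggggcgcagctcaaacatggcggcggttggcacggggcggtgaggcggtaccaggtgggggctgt
Hmgcs1 held 4 NF-Y boxes and the core CACCCCAC, which began 136 bases before the start. Idi1 held 2 NF-Y boxes, and Srebf2 held 1. Insig1 held 1 NF-Y box and 1 match to the core on the other strand, GTGGCGTG. Of all 32851 promoters in the RefSeq table, 37.4% held the NF-Y box and 6.24% the core. Among 19 promoters of 16 sterol synthesis enzyme genes, 15 held the box and 2 the core. The 3 Lrp8 windows and the Ch25h window held neither. The Lrp8 windows begin at 107802635 or later, inside the deposited span of the gene. None covers its start at 107801869, or at 107802261 in GENCODE M21, so the bases around those starts were not searched. The core of the interferon-stimulated response element was in 3.44% of all promoters and the full sterol regulatory element in 0.234%, and the windows of these 6 genes matched neither. A match is a description of the letters only.

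Treated against control tumours, the 8 genes. Most of the genes were lower in treated tumours, and Lrp8 was the only one whose fall passed the test. Insig1 had a similar mean difference with a wider spread, the 4 enzyme genes differed less, Srebf2 itself overlapped between the groups, and Ch25h varied as much within each group as between them. Of the 8 genes, 1 fell at an adjusted p under 0.05 in edgeR's quasi-likelihood F test with Benjamini-Hochberg adjustment over all genes, where 0.249% of all tested genes fell. The 3 treated libraries lay below the 3 controls for 5 of the 8 genes (Hmgcs1, Sqle, Idi1, Insig1 and Lrp8), and for 11.2% of all tested genes. The median log2 fold change over the 8 genes was -0.33, against -0.003 over all tested genes. Treated 1 was the lowest of the 6 libraries for 7 of the 8 genes, Ch25h being the exception, and for 22.2% of all tested genes. In bulk RNA, fewer cells of a type and less RNA per cell cannot be told apart.

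**Figure D1:**
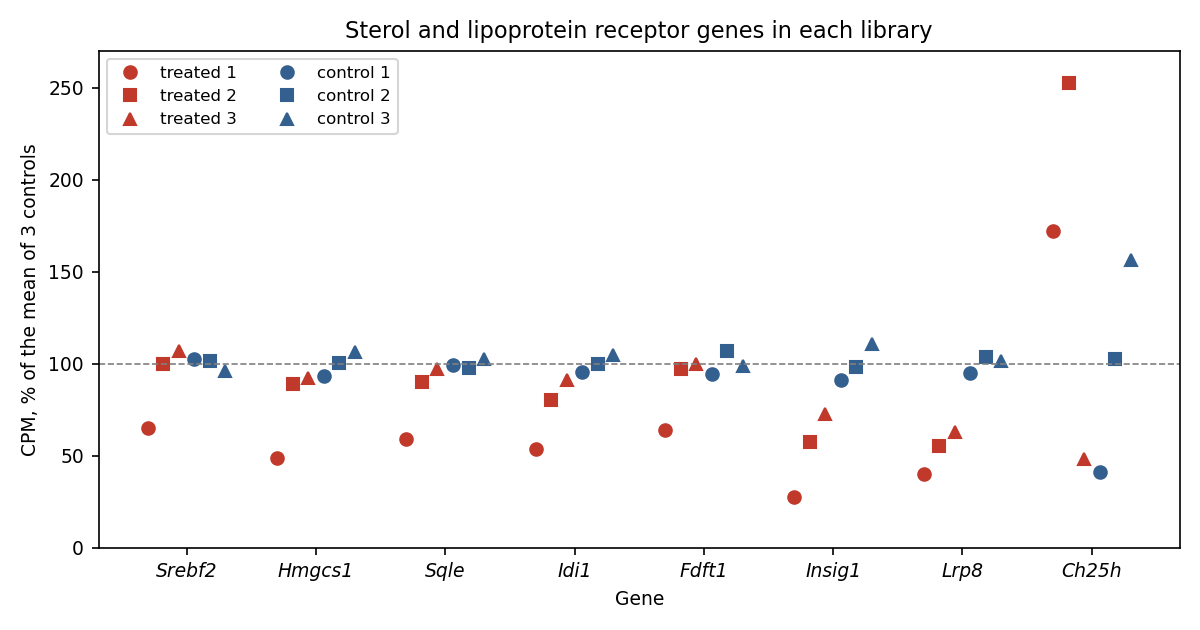
Level of each of the 8 genes in each library (vertical axis, CPM as a percent of the mean of the 3 controls; red, treated; blue, control; symbols, replicate numbers). For Insig1 and Lrp8 every treated library is below every control, at 27.5 to 72.7% and 40.1 to 63.2% of the control mean, while Ch25h overlaps between the groups.

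Levels per gene length are given as deposited FPKM. In control tumours Insig1 was highest at 86.9 ± 8.76 FPKM, followed by Sqle at 37.7 ± 0.984, Srebf2 at 37.1 ± 1.23, Hmgcs1 at 33.9 ± 2.21, Idi1 at 25.0 ± 1.19 and Fdft1 at 23.0 ± 1.42 FPKM (SD, n = 3). Lrp8 at 5.96 ± 0.262 and Ch25h at 0.595 ± 0.351 FPKM were far lower. The values of Sqle and Srebf2, of Srebf2 and Hmgcs1, and of Idi1 and Fdft1 overlapped between libraries, so the order within these pairs is not fixed by the data. In treated tumours Insig1 had 24.0, 49.1 and 63.4 FPKM, a range that held all 3 treated values of Srebf2 and 2 of the 3 of Sqle.

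The factor and its brake. Srebf2 (ENSMUSG00000022463, chromosome 15, 82147181 to 82205379, plus strand), the gene of the factor itself, had 194.8, 300.1 and 320.9 CPM in treated 1, 2 and 3, against 307.1, 304.8 and 288.5 CPM in controls 1, 2 and 3. Only treated 1 lay outside the control range on the low side, and treated 3 was the highest library of all. The log2 fold change was -0.14 ± 0.17 SE (n = 3 each, edgeR adjusted p = 0.741), and it was 0.05 without treated 1. Srebf2 hosts the miRNA gene Mir33 in its span.

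Insig1 (ENSMUSG00000045294, chromosome 5, 28071363 to 28078662, plus strand) encodes the protein that retains SREBP2 and is itself a known SREBP2 target. It had 83.3, 175.0 and 220.3 CPM in treated 1, 2 and 3, against 275.7, 297.8 and 335.9 CPM in controls 1, 2 and 3. All treated libraries were below all controls, and the treated values spread widely, with treated 1 at 27.5% of the control mean and treated 3 at 72.7%. Its log2 fold change of -0.93 ± 0.30 did not pass the test (n = 3 each, edgeR adjusted p = 0.192). Without treated 1 the log2 fold change was -0.62 (edgeR adjusted p = 0.0694).

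The enzymes. Hmgcs1 (ENSMUSG00000093930, chromosome 13, 119690379 to 119708260, plus strand) makes HMG-CoA, an early intermediate of the mevalonate pathway. It had 85.8, 156.3 and 162.0 CPM in treated 1, 2 and 3, against 164.1, 175.9 and 186.9 CPM in controls 1, 2 and 3. The groups did not overlap, although treated 3 and control 1 differed by little, and the log2 fold change was -0.38 ± 0.21 (n = 3 each, edgeR adjusted p = 0.434).

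Idi1 (ENSMUSG00000058258, chromosome 13, 8885501 to 8892451, plus strand) interconverts the isoprene units from which sterols are built. It had 52.8, 79.5 and 89.7 CPM in treated 1, 2 and 3, against 94.0, 98.7 and 103.3 CPM in controls 1, 2 and 3. Every treated library was below every control. The log2 fold change was -0.41 ± 0.17 (n = 3 each, edgeR adjusted p = 0.294).

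Fdft1 (ENSMUSG00000021273, chromosome 14, 63145150 to 63179578, minus strand) encodes squalene synthase, the first step committed to sterols. It had 68.2, 103.6 and 106.5 CPM in treated 1, 2 and 3, against 100.9, 114.1 and 105.2 CPM in controls 1, 2 and 3. Treated 2 and 3 lay within the control range, and the log2 fold change was -0.20 ± 0.16 (n = 3 each, edgeR adjusted p = 0.599), or -0.02 without treated 1. Its end overlaps Ctsb on the opposite strand, a gene with up to 61313 counts in a library. Whether the authors' counting used strand is not given, so the assignment of reads from the shared end is uncertain. The log2 fold change of Ctsb was 0.15 ± 0.13 (n = 3 each, edgeR adjusted p = 0.647).

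Sqle (ENSMUSG00000022351, chromosome 15, 59315077 to 59331192, plus strand) encodes squalene epoxidase, which adds the oxygen that becomes the sterol hydroxyl. It had 139.8, 211.6 and 229.2 CPM in treated 1, 2 and 3, against 234.3, 230.3 and 242.0 CPM in controls 1, 2 and 3. The groups did not overlap, but treated 3 came within about 1 CPM of control 2. The log2 fold change was -0.28 ± 0.16 (n = 3 each, edgeR adjusted p = 0.447).

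The rest of the sterol pathway. The enzyme genes around these 4 shared the direction, by small amounts and without a single call. All 19 enzymes described had a log2 fold change below 0, from -0.67 to -0.17 with a median of -0.38, while 50.6% of all tested genes were below 0. The treated libraries were all below the controls for 17 of 19 enzymes, where 11.2% of all tested genes were, the exceptions being Fdft1 and Msmo1. With edgeR, 0 of the 19 were called. Lower values with an unadjusted p under 0.05 were found for 12 of the 19, against 6.90% of all tested genes, and for 6 of the 19 without control 1, 2 or 3 (5.78%, 4.29% and 4.22% of all tested genes). DESeq2 called 6 as lower (Acat2, Cyp51, Hsd17b7, Lss, Nsdhl and Sc5d), where it called 1.89% of all genes with an adjusted p as lower. Limma-voom called 0 and limma-voom with sample quality weights 1 as lower (Acat2), where the weighted fit called 1.06% of all tested genes as lower. These genes share regulators and libraries and are not independent, and the 4 enzymes described above are among the 19.

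Acat2, which joins acetyl-CoA units at the start of the pathway, had the smallest p. It had 61.9, 85.4 and 89.7 CPM in treated 1, 2 and 3, against 119.4, 114.2 and 116.3 CPM in controls 1, 2 and 3 (log2 fold change -0.56 ± 0.13, n = 3 each, edgeR adjusted p = 0.0916). The groups did not overlap, and Acat2 passed without treated 1 (edgeR adjusted p = 0.0268). Hsd17b7, a sterol ketoreductase, had the largest difference at -0.67 ± 0.20 (adjusted p = 0.169), and Sc5d, a late desaturase, had -0.45 ± 0.14 (0.171). Fdps, which makes farnesyl diphosphate and was the most abundant enzyme per length by the mean of the 6 libraries, had 49.5 ± 9.84 FPKM in treated and 62.7 ± 1.88 FPKM in control tumours (SD, n = 3 each; log2 fold change of counts -0.33 ± 0.14, edgeR adjusted p = 0.293). In control tumours alone Cyp51, a demethylase of lanosterol, was level with it at 63.1 ± 2.97 FPKM (SD, n = 3).

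**Figure D2:**
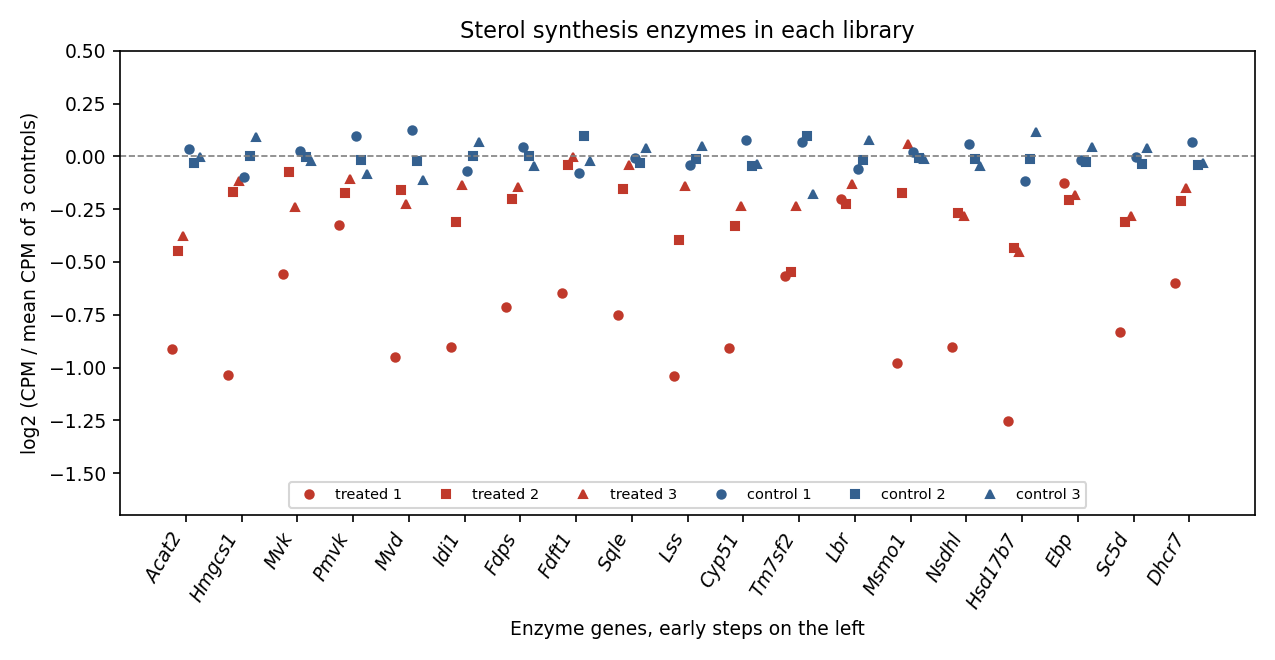
The 19 sterol synthesis enzymes, early steps on the left, in each library (vertical axis, log2 of CPM over the mean CPM of the 3 controls; red, treated; blue, control; symbols, replicate numbers). Treated 1 is the lowest library for 17 of the 19 genes, and treated 2 and 3 lie closer to the controls.

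The size of the shift differed between treated libraries. Against the control mean, the 19 enzymes had a median log2 difference of -0.83 in treated 1, of -0.21 in treated 2 and of -0.15 in treated 3, and between -0.01 and 0.02 in the controls. Their summed level was 1322, 1926 and 2051 CPM in treated 1, 2 and 3, against 2287, 2250 and 2276 CPM in controls 1, 2 and 3. Treated 1, the library lowest in sterol enzymes, was also the one with the most skin keratin RNA. Its macrophage (221.2 CPM), neutrophil (67.7 CPM) and adipocyte (92.9 CPM) marker sums were the highest of all libraries. Fabp4 alone gave 78.1 CPM of that adipocyte sum. Treated 1 was highest for 6 of the 10 adipocyte markers, while Plin1 was at 0 in treated 1, 2 and 3. In the other libraries the macrophage sum was 66.7 to 128.0 CPM in treated and 119.7 to 161.7 CPM in control tumours, the neutrophil sum 6.49 to 22.4 and 5.36 to 8.03 CPM, and the adipocyte sum 44.8 to 53.6 and 34.9 to 35.7 CPM. Without treated 1, all 19 enzymes still had a log2 fold change below 0, the treated libraries were below the controls for 17 of them, against 17.6% of all tested genes, and the median was -0.19. Without treated 3 these values were 19, 18 (16.3% of all tested genes) and -0.52. The melanocyte sum of treated 1, at 22740 CPM, lay inside the control range. Its single markers differed: treated 1 was the lowest library for 3 of the 10, against 22.2% of all tested genes, and the highest for 1. Whether the marker levels of treated 1 are linked to its sterol enzyme levels was not tested.

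Genes that control SREBP. The machinery that senses sterols and cuts SREBP showed no call. Of 16 genes tested, Insig1 and Srebf2 among them, 0 passed the edgeR threshold. At an unadjusted p under 0.05, 3 were lower and 1 higher, against 6.90% and 9.12% of all tested genes, and DESeq2 called 0. Without control 3 the lower ones were 1, against 4.22% of all tested genes. The median log2 fold change was 0.01. Stard4, a sterol carrier that is itself a known SREBP2 target, had 45.0, 73.8 and 84.3 CPM in treated 1, 2 and 3, against 98.3, 107.8 and 118.0 CPM in controls 1, 2 and 3 (-0.67 ± 0.21, n = 3 each, edgeR adjusted p = 0.173). Like Insig1, its groups did not overlap and treated 1 was lowest. Mbtps2, the protease that makes the second cut in SREBP, had a log2 fold change of -0.24 ± 0.08 in the same fit (edgeR adjusted p = 0.197).

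Fatty acid synthesis, which the related factor SREBP1 drives, was in part lower too. Of 19 genes tested, 14 had a log2 fold change below 0 and 10 had all treated libraries below all controls, against 50.6% and 11.2% of all tested genes. The median was -0.25, and -0.12 without treated 1. None passed the edgeR threshold, and 8 were lower at an unadjusted p under 0.05, against 6.90% of all tested genes. Without control 1 these were 4 and without control 2 they were 5, against 5.78% and 4.29% of all tested genes. DESeq2 called 7 as lower, against 1.89% of all genes with an adjusted p. Acaca, the carboxylase of the first committed step, had 71.8, 63.0 and 68.3 CPM in treated 1, 2 and 3, against 97.5, 89.5 and 82.2 CPM in controls 1, 2 and 3 (log2 fold change -0.41 ± 0.08, n = 3 each, edgeR adjusted p = 0.0655). Here treated 1 was the highest of the treated libraries. The elongase gene Elovl5 had -0.25 ± 0.07 (adjusted p = 0.118), the desaturase gene Fads2 -0.43 ± 0.12 (0.15), and Scd2, the most abundant gene of the list per length, -0.42 ± 0.15 (edgeR adjusted p = 0.221).

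**Figure D3:**
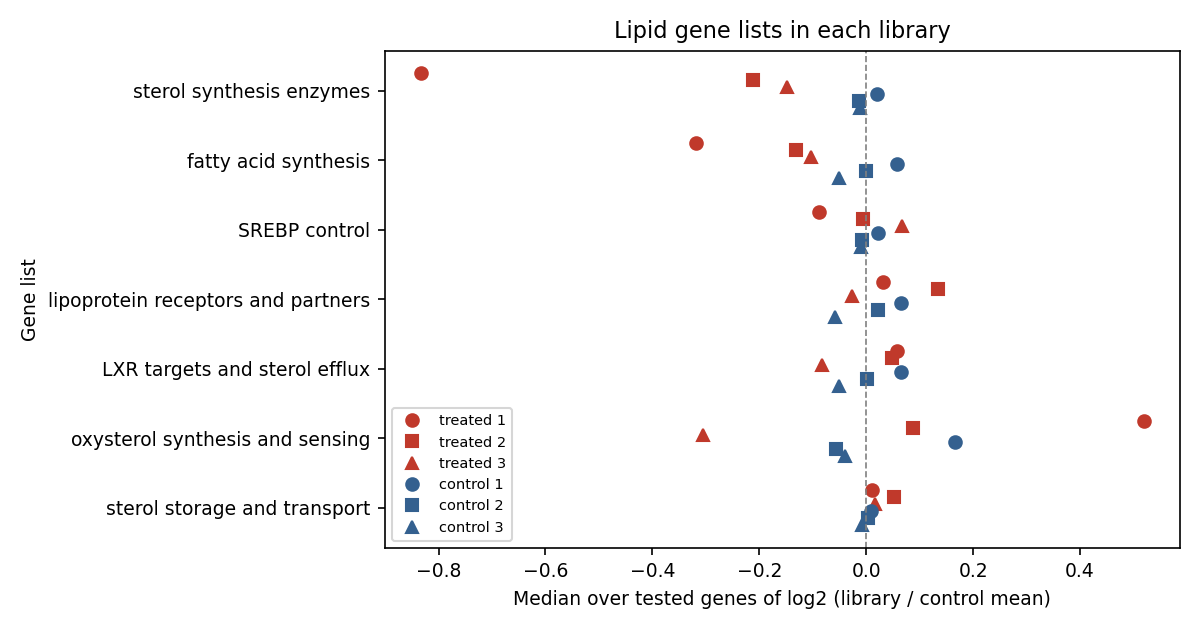
Median over the tested genes of each lipid list of log2 of a library's CPM over the control mean (horizontal axis; red, treated; blue, control; symbols, replicate numbers). For sterol synthesis enzymes the treated libraries lie at -0.83, -0.21 and -0.15, and for fatty acid synthesis at -0.32, -0.13 and -0.10; the groups overlap or nearly touch in the other lists.

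Lipoprotein receptors. Lrp8 (ENSMUSG00000028613, chromosome 4, 107801869 to 107876840, plus strand) encodes ApoER2, a receptor that binds apolipoprotein E and, in neurons, reelin. It had 34.3, 47.3 and 53.9 CPM in treated 1, 2 and 3, against 81.2, 88.5 and 86.6 CPM in controls 1, 2 and 3. Every treated library was below every control, at 40.1%, 55.3% and 63.2% of the control mean. Lrp8 fell to 0.529 of the control level (log2 fold change -0.92 ± 0.15, n = 3 each, edgeR adjusted p = 0.0268). The fall passed the test also without treated 1 (-0.75, edgeR adjusted p = 0.00776), the library lowest in sterol enzymes, and without treated 3 (-1.07, 0.00987). The call was lost without treated 2 (edgeR adjusted p = 0.119), control 1 (0.0841), control 2 (0.147) or control 3 (0.124), and with no filter on low counts (0.0704), while its log2 fold change stayed between -0.95 and -0.89 in these. The annotated antisense gene Lrp8os2 had at most 4 counts in a library, and Lrp8os3 at most 60.

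**Figure D4:**
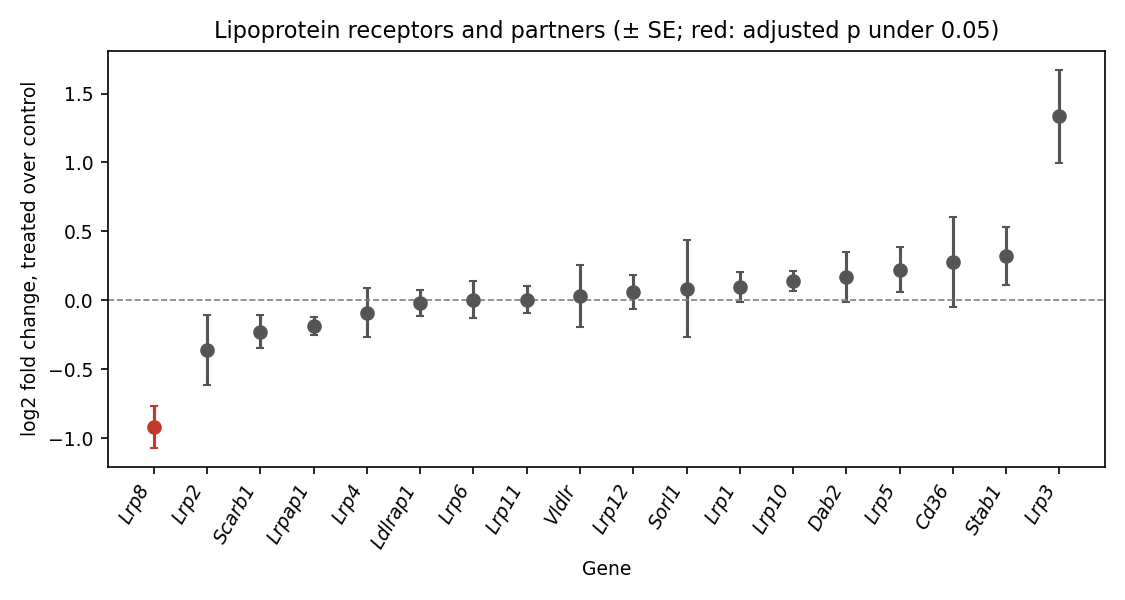
Log2 fold change, treated over control (vertical axis; points, edgeR estimates; bars, SE; 3 libraries a group), of the 18 lipoprotein receptors and partners, in order of size. Lrp8, in red, is at -0.92 and is the only one with an adjusted p under 0.05; Lrp3 at the other end is at 1.34 and did not pass.

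Of the 18 lipoprotein receptors and partners described, Lrp8 was the only one to fall and none rose, where 0.249% of all tested genes fell and 1.36% rose. The median of their log2 fold changes was 0.05, and between -0.0047 and 0.09 with a library left out. Lrp3 was called as higher by DESeq2 (adjusted p = 0.0356) and by quality-weighted limma-voom (adjusted p = 0.0233). DESeq2 called 4.47% of all genes with an adjusted p as higher, and quality-weighted limma-voom 3.33% of all tested genes. Vldlr, which like Lrp8 encodes a receptor for reelin, named after its values were seen, was scarce at 0.265 FPKM in treated and 0.260 FPKM in control tumours. Lrp3 had 1.68, 1.93 and 2.47 CPM in treated 1, 2 and 3, against 0.633, 0.637 and 1.14 CPM in controls 1, 2 and 3 (log2 fold change 1.34 ± 0.34, n = 3 each, edgeR adjusted p = 0.115). On the same scale Lrpap1, a chaperone of these receptors, had -0.19 ± 0.07 (edgeR adjusted p = 0.228), and Lrp10, the most abundant per length, 0.14 ± 0.07 (0.389). Mylip, the ligase that marks the proteins of Vldlr and Lrp8 for degradation, also named after its values were seen, differed by 0.03 ± 0.12 on the log2 scale (edgeR adjusted p = 0.934). Whether Lrp8 differs from these genes in its response was not tested.

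By likeness of profile over the 6 libraries, measured as the root mean square difference of log2 CPM after centring each gene, Lrp8 was nearest to Tmem71 (0.0722), Galnt6 (0.108) and Cacnb4 (0.12) among 12396 other genes. The own spread of Lrp8 on that scale was 0.511. Galnt6, an enzyme of O-glycosylation, had 28.6, 44.0 and 46.1 CPM in treated 1, 2 and 3, against 64.4, 65.7 and 66.3 CPM in controls 1, 2 and 3 (log2 fold change -0.73 ± 0.16, n = 3 each, edgeR adjusted p = 0.0825). None of the 3 passed the threshold.

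Oxysterol formation and sterol efflux. Ch25h (ENSMUSG00000050370, chromosome 19, 34473778 to 34475164, minus strand) had 106, 153 and 30 counts in treated 1, 2 and 3, against 25, 62 and 84 counts in controls 1, 2 and 3. In CPM these were 1.62, 2.38 and 0.452 in treated 1, 2 and 3, against 0.386, 0.963 and 1.47 in controls 1, 2 and 3. Treated 1 and 2 were above every control, and treated 3 was below 2 of the 3. The log2 fold change was 0.66 ± 0.65 (n = 3 each, edgeR adjusted p = 0.691), from 0.15 without treated 2 to 1.14 without control 3.

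The genes nearest to Ch25h in profile were Tgtp1 (0.196), Iigp1 (0.24) and Gm12250 (0.251), on a scale where the own spread of Ch25h was 0.927. Tgtp1 and Iigp1 encode GTPases of the interferon-gamma response. Tgtp1 had 339.0, 370.8 and 115.2 CPM in treated 1, 2 and 3, against 87.0, 181.1 and 313.3 CPM in controls 1, 2 and 3, so that, as for Ch25h, treated 1 and 2 were above every control and treated 3 and control 1 were the lowest (log2 fold change 0.50 ± 0.52, n = 3 each, edgeR adjusted p = 0.699). For Iigp1 and Gm12250 control 3 was above treated 1, at 171.4 against 146.5 CPM and 31.2 against 30.3 CPM. Tgtp1 has near-identical copies that can share reads. The macrophage marker sum did not have the order of Ch25h, with 221.2, 128.0 and 66.7 CPM in treated 1, 2 and 3, against 161.7, 157.8 and 119.7 CPM in controls 1, 2 and 3. Single markers differed. Cd68 (31.9, 36.6 and 18.5 CPM in treated 1, 2 and 3) and Fcgr1 (15.7, 8.40 and 2.21 CPM) had treated 1 and 2 above every control and treated 3 lowest. The other macrophage markers did not. The cell source of Ch25h was not tested.

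**Figure D5:**
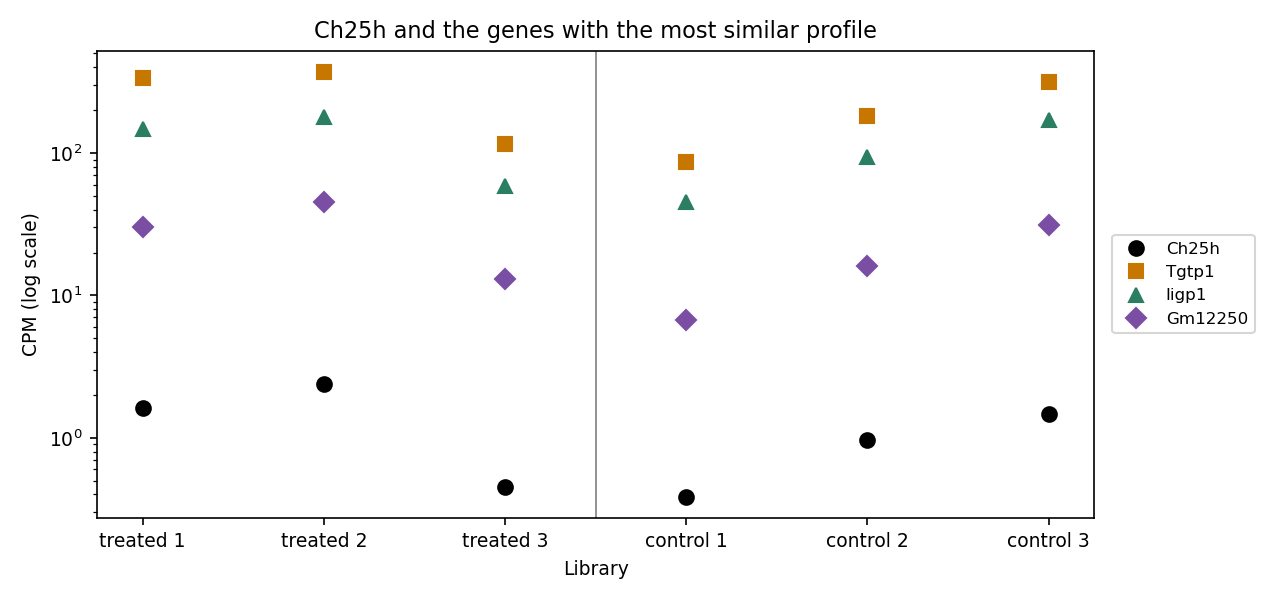
CPM on a log axis of Ch25h and the 3 genes with the most similar profile, in each of the 6 libraries (treated left, control right of the line). In all 4 genes treated 2 is the highest library and control 1 the lowest, and Ch25h lies between 0.386 and 2.38 CPM.

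Oxysterol synthesis and sensing showed no call in either direction. Of 12 genes tested, Ch25h among them, 0 passed the edgeR threshold and DESeq2 called 0. At an unadjusted p under 0.05, 0 were lower and 0 higher, against 6.90% and 9.12% of all tested genes. The median log2 fold change was 0.09, and -0.06 without treated 1. The smallest p belonged to Hsd3b7, an enzyme on the way to bile acids and an inactivator of oxysterol ligands (0.26 ± 0.14, edgeR adjusted p = 0.399), Osbp (0.09 ± 0.08, 0.616) and Nr1h3, the nuclear receptor LXR alpha (0.58 ± 0.48, 0.626), whose log2 fold change was -0.12 without treated 1. Nr1h2, LXR beta, was the most abundant per length (0.08 ± 0.07, edgeR adjusted p = 0.647). Among 13 LXR targets and efflux genes, 0 passed the edgeR threshold. At an unadjusted p under 0.05, 1 was higher and 2 were lower, against 9.12% and 6.90% of all tested genes. Without control 2 the lower ones were 0, against 4.29% of all tested genes. DESeq2 called 1 of each, where it called 4.47% of all genes with an adjusted p as higher and 1.89% as lower. Abcg1, a sterol exporter, had 7.98, 4.99 and 3.46 CPM in treated 1, 2 and 3, against 2.47, 2.31 and 2.75 CPM in controls 1, 2 and 3 (log2 fold change 1.12 ± 0.31, n = 3 each, edgeR adjusted p = 0.137). Lpl, lipoprotein lipase, had -1.08 ± 0.39 (adjusted p = 0.231), Lpcat3, which remodels phospholipids, -0.27 ± 0.09 (0.224), and Apoe, the most abundant per length, 0.10 ± 0.09 (0.633).

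Sterol storage and transport held the only genes of these lipid lists that edgeR called as higher. Of 16 tested, 3 rose, where 1.36% of all tested genes rose, and none fell. Cav1, the coat protein of caveolae and a gene that endothelium also expresses, had 28.5, 26.2 and 28.0 CPM in treated 1, 2 and 3, against 16.9, 18.1 and 14.8 CPM in controls 1, 2 and 3 (log2 fold change 0.73 ± 0.10, n = 3 each, edgeR adjusted p = 0.0171). Tspo, an outer mitochondrial membrane protein, rose by 0.44 ± 0.07 (adjusted p = 0.0248), and Stard3, a sterol transfer protein of late endosomes, by 0.40 ± 0.07 (edgeR adjusted p = 0.0408). Endothelial markers rose beside Cav1, 7 of 10, with sums of 212.6 to 238.7 CPM in treated and 131.0 to 149.0 CPM in control tumours. Vwf went the other way without a call (log2 fold change -0.49 ± 0.20, edgeR adjusted p = 0.284). The part of endothelial cells in the rise of Cav1 was not tested. Npc2, the most abundant per length by the mean of the 6 libraries, had 0.02 ± 0.06 (edgeR adjusted p = 0.894), while in treated tumours alone Plin2, a lipid droplet protein, was higher per length (56.9 against 52.6 FPKM). The call of Cav1 was lost without treated 2 (edgeR adjusted p = 0.0545), control 1 (0.0696), control 2 (0.0627) or control 3 (0.0575). Tspo kept its call among these only without treated 3 (up to 0.165 otherwise), and Stard3 in none of the 6 settings with a library left out (0.0833 to 0.231).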

How the data were processed

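RNA of 6 mouse tumour libraries was compared, 3 treated and 3 control, grouped by library names. Per the labels' protocols, oligo(dT)-selected RNA was made into dUTP libraries, which mark strand, and read as pairs. Per the submitters' processing notes the tools were fastp, StringTie and edgeR; the sources used here name no aligner, build, annotation or use of strand in counting. The authors deposited raw counts per the file headers, and FPKM, used here only for levels between genes. Coordinates are those deposited; 99.7% of gene identifiers occur in GENCODE M21 (GRCm38), 87.2% of those with the same span.

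Of rows sharing a symbol, the one with the highest mean count kept it. Genes passed filterByExpr (minimum count 10, minimum total 15; 10319 genes removed), were scaled by TMM (0.974 to 1.01) and tested two-sided in R 4.3.3 with edgeR 4.0.16 (glmQLFit, glmQLFTest), Benjamini-Hochberg threshold 0.05. SE is the log2 fold change over the square root of F. DESeq2 1.42.0, limma 3.58.1, other scalings and filters, a replicate block and each library left out were alternatives. At these depths abundant genes are limited by spread between libraries, and Ch25h also by few counts. Lists were described by counts and medians, without a set test. Named beyond the 8 genes were called genes, the 3 smallest p and the most abundant gene of each lipid list, and 3 nearest profiles. Exceptions are marked. Single cell type markers that were neither called nor at 0 in a library were named after their values were seen. The 8 genes and the lists were chosen with earlier results of these data known. A few further genes of these pathways are not reported here.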

Additional observations from a re-analysis of the deposited data

How the results depend on the processing

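All 8 genes kept their direction in 15 alternatives, except Srebf2, which passed in no setting. Its log2 fold change was -0.28 to 0.050 with a library left out, positive without treated 1. Other genes that were not called also changed sign with a library left out: Nr1h3 (-0.12 to 0.95) without treated 1, Vldlr (-0.083 to 0.17) without treated 1 or control 2, Mylip (-0.072 to 0.099) without treated 1 and Npc2 (-0.0093 to 0.063) without control 3. Mylip was at -0.0024 with quality weights, and Vldlr at -0.06 without control 2. Lrp8 kept its call in 10 of the 15. Of the 8 genes, 1 was called by default, 0 with no filter on low counts, and 0 to 1 with a library left out. Over the 7 lipid lists 4 genes were called by default, 2 with no filter, 21 by DESeq2, 8 by limma-voom with sample quality weights, 1 with the replicate block and 0 to 4 with a library left out. For the sterol enzymes these counts were 0 by default, 6 by DESeq2, 1 with quality weights and 0 to 1 with a library left out. Over all genes 291 were called (246 rose, 45 fell). With no filter 174 were called (10 fell). DESeq2 called 998 (701 rose, 297 fell) and quality weights gave 792 (601 rose, 191 fell). With a library left out there were 97 to 347 calls (94 to 308 rose, 3 to 39 fell). The cause of these differences was not tested. Deviations of same-numbered libraries correlated at 0.0855, -0.164 and -0.107 across genes, and those of differently numbered libraries at -0.148 to 0.239. With 3 libraries a group, such values cannot settle whether the libraries were paired. With the replicate block, 137 genes were called (123 rose, 14 fell), and Lrp8 had an adjusted p of 0.0379 by edgeR, while Cav1 (0.0795), Tspo (0.0974) and Stard3 (0.138) were not called. Stard3 was also not called with library totals (0.0594), upper-quartile factors (0.0532) or no filter (0.0631).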
